A study of Mus musculus with 2 samples.

Results

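Genes of cholesterol synthesis, cholesterol efflux and lipid handling were followed in LPS-stimulated peritoneal macrophages of Pac1-/- and Pac1+/+ mice. The 38 genes were taken from a list of named enzymes, receptors, transporters and lipid-binding proteins. Each was looked up by symbol among the 8220 genes that the array annotation names. Of the 38, 34 had a probe set with a single gene symbol, and Srebf2, Nr1h2, Acaca and Soat1 had none and were not analysed here. Signals above a floor of 36.4, the median signal over both arrays, were measured for 29 of the 34 genes, and each of these 29 was above the floor on both arrays. The other 5 (Lss, Dhcr7, Insig1, Pparg and Acly) were at or below the floor on both arrays.

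Macrophages make cholesterol from acetyl-CoA through mevalonate, farnesyl pyrophosphate, squalene and lanosterol, and the genes of this path are activated by the transcription factor SREBP2 when sterol in the endoplasmic reticulum is low. When sterol is plentiful, oxysterols activate the nuclear receptors LXR, which pair with RXR and switch on transporters that move cholesterol out of the cell, along with Srebf1 and genes of fatty acid synthesis. Cholesterol that enters as lipoprotein or as engulfed cells is freed in the lysosome, carried out of it, and then exported or stored as ester in lipid droplets.

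The study compared 2 Affymetrix arrays, 1 per genotype. The knockout array held RNA of macrophages without Pac1, the product of Dusp2, a nuclear phosphatase of MAP kinases, and the wild-type array held RNA of Pac1+/+ littermates matched for age. In both, macrophages were drawn to the peritoneum by an injection of 2 ml of 3% thioglycollate, taken 4 days later, purified by 2 hours of adherence and given 100 ng/ml LPS, the bacterial ligand of Toll-like receptor 4, for 6 hours. The age and strain of the mice, the number of mice behind an array and the deleted part of the gene are not stated in the labels, and cells without LPS were not analysed here. The labels put the purity at 92 to 95% Mac-1-positive cells.

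Signals are MAS5 intensities in arbitrary units, and their median over 12654 probe sets was 38 for knockout and 35 for wild-type cells. With 1 array per genotype no difference below has a replicate check or a test, so sizes are given without p-values, and the number of arrays limits the precision. Signals of different genes come from different probes and are not set against each other. Marker signals are summed in places below, and in such a sum the brightest probe sets weigh most. Dusp2 itself was at 76.8 in knockout and 333.0 in wild-type cells, a log2 ratio of −2.12. All 8 macrophage markers (Itgam, Adgre1, Cd68, Csf1r, Cd14, Lyz2, Fcgr1 and Mertk) were above the floor on both arrays. Of marker genes of other cells with a probe set, those with a signal over the floor on either array were 3 of 6 for neutrophils, 1 of 2 for eosinophils, 3 of 3 for B cells and 1 of 4 for T and NK cells. They were 2 of 4 for mast cells, 2 of 3 for dendritic cells, 5 of 6 for mesothelial and stromal cells and 1 of 3 for adipocytes. Some differed between the arrays, in both directions. In knockout and wild-type cells, Prg2 of eosinophils was at 100.1 and 16.0, while Epx was below the floor on both arrays. Of B cell genes, Cd79a was at 100.2 and 20.7, Cd79b at 82.8 and 91.9 and Ms4a1 at 52.2 and 87.4. Cd4 of T cells was at 32.8 and 74.5, with Cd3e, Cd3d and Cd8a below the floor on both. Tpsb2 of mast cells was at 192.4 and 115.9 and Kit at 42.7 and 20.1, with Cpa3 and Mcpt4 below the floor on both. The lower values of Prg2, Cd79a, Cd4 and Kit were themselves below the floor. In RNA of a whole cell population, fewer cells of a type and less RNA per cell cannot be told apart.

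Lipid genes were neither higher nor lower as a group on the knockout array. Of the 29 measured genes, 15 had a log2 ratio of knockout over wild type above 0 and 14 below 0, with a median of 0.03 against 0.02 for all 5119 genes above the floor on at least 1 array. Lipa and Npc2, genes of cholesterol release from the lysosome, were more than 1.5-fold higher on the knockout array. Rxra, Cyp51 and Osbpl5 were more than 1.5-fold lower, and Osbpl5 was the only member more than 2-fold apart. Ratios below 0 were found for 47.8% of all eligible genes. Differences of 2-fold or more occurred in 2.31% of all eligible genes (1.23% higher, 1.07% lower) and in 1 of the 29 members (3.45%). Differences of 1.5-fold or more occurred in 12.1% of all eligible genes and in 5 members (17.2%).

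**Figure D1:**
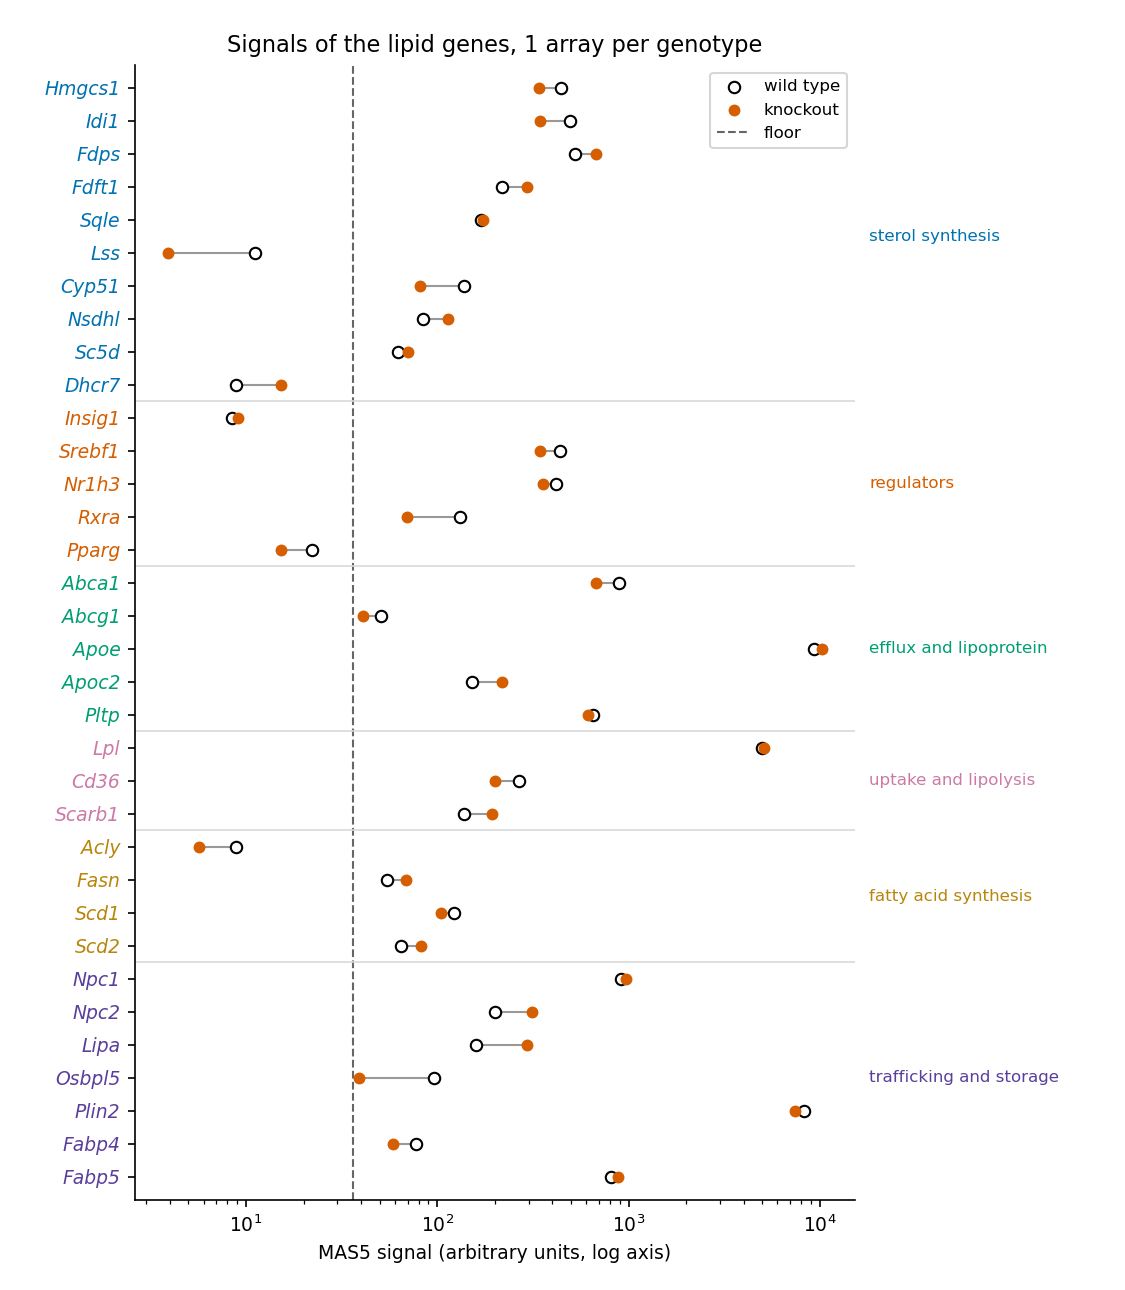
MAS5 signal (arbitrary units, log axis) of each of the 34 lipid genes with a probe set, on the wild-type array (open circles) and the knockout array (filled circles), ordered by role, with the floor of 36.4 as a dashed line. Lipa and Npc2 lie to the right on the knockout array, Rxra, Cyp51 and Osbpl5 to the left, and 5 genes lie left of the floor on both arrays.

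The enzymes of sterol synthesis did not lie in one direction. Of the 10 enzyme genes, 8 were above the floor, 5 of them with a ratio above 0 and 3 below. Their median log2 ratio was 0.11 and was −0.01 when both arrays were scaled to 1 common median signal, called median scaling here. None was 2-fold apart and 1 of 8 (Cyp51) was 1.5-fold lower, beside 5.72% of all eligible genes that were 1.5-fold or more lower.

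Hmgcs1, the synthase that makes HMG-CoA at the head of the pathway, had a signal of 338.8 in knockout and 446.0 in wild-type cells (log2 ratio −0.40). Idi1, which isomerises isopentenyl pyrophosphate, was at 345.7 in knockout and 497.0 in wild-type cells (−0.52), 69.6% of the wild-type level. Both early enzymes were thus lower on the knockout array. They stayed lower after quantile normalization (−0.36 and −0.49) and lowess (−0.38 and −0.51). The other processings could not turn the sign of these ratios.

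The next enzymes lay the other way. Fdps, which makes farnesyl pyrophosphate, was at 673.2 in knockout and 523.4 in wild-type cells (log2 ratio 0.36), while the second Fdps probe set was below that floor. Fdft1, the squalene synthase, was at 295.9 and 217.0 (0.45). Sqle, the squalene epoxidase and a control point of the path, was nearly level at 172.6 and 168.6 (0.03, and −0.08 with median scaling).

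Among the late enzymes, Cyp51, the lanosterol demethylase, had the lowest ratio of the pathway, with 81.3 in knockout and 138.7 in wild-type cells. That is 1.71-fold lower (log2 ratio −0.77, only probe set 94916_at). Nsdhl, which acts in removing the methyl groups of lanosterol, was higher, at 113.9 and 84.2 (0.44). Its other probe sets gave 0.61, from a set whose suffix marks possible cross-hybridisation, and 0.06, from a set near the floor at 41.2 and 39.5. All 3 lay above 0 with sizes that differed, although they read the same RNA and may share probes. Sc5d, the lathosterol desaturase, was at 70.7 and 62.2 (0.18), and its second probe set gave 0.55. Both Sc5d probe sets carry a suffix that marks possible cross-hybridisation. Lss, the lanosterol synthase, was at 3.9 in knockout and 11.1 in wild-type cells, and Dhcr7, an enzyme of the final steps, at 15.2 and 8.9, all below the floor, so neither has a ratio.

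Promoters of these enzymes are shown because genes of sterol synthesis are known targets of SREBP2, which acts with NF-Y, a factor that binds CCAAT, and because the enzymes went both ways here. RefSeq promoter windows (GRCm38.p6, 250 bases before to 50 after each gene start) were at hand for 7 of the 10 enzyme genes and 27 of the 38 members. The 250 bases before the start are printed for the 5 measured enzymes with a window, 5′ to 3′ on the strand of the gene. Capitals mark CCAAT or its reverse complement ATTGG, and CACCCCAC, the last 8 bases of the sterol regulatory element of the LDL receptor promoter. Hmgcs1, Idi1 and Cyp51 were lower on the knockout array and Nsdhl and Sc5d were higher.
Hmgcs1 (chr13:119690101-119690350, + strand): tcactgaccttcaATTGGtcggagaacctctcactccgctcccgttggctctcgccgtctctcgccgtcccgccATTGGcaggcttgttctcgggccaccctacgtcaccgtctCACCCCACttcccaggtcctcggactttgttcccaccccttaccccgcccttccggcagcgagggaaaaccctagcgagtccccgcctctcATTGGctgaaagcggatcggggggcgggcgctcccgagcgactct
Idi1 (chr13:8885356-8885605, + strand): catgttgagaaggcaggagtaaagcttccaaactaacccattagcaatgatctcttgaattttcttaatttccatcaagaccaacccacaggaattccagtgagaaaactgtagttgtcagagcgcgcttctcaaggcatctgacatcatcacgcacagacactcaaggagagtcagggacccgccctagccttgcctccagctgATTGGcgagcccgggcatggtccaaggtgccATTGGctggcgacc
Cyp51 (chr5:4104698-4104947, - strand): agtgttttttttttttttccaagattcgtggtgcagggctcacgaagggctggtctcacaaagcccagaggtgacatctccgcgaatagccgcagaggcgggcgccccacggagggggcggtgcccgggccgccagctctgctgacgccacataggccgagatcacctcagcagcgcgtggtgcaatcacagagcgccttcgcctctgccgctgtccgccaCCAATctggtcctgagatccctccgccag
Nsdhl (chrX:72918271-72918520, + strand): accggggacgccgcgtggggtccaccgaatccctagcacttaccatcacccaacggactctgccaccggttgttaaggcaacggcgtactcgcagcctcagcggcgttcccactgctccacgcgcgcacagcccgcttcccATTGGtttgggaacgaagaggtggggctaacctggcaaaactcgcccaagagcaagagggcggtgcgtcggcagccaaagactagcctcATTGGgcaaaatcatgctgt
Sc5d (chr9:42264301-42264550, - strand): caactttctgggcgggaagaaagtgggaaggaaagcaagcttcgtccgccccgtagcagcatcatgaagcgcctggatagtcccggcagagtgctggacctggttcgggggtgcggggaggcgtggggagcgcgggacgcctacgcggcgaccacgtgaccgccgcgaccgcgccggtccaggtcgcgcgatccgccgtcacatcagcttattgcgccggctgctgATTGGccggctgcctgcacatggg

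The Hmgcs1 window held 3 CCAAT matches and 1 CACCCCAC, which starts 136 bases before the gene start. Idi1 and Nsdhl held 2 CCAAT matches each, and Cyp51 and Sc5d held 1 each. The match nearest the start lay 45 bases before it for Hmgcs1, 14 for Idi1, 29 for Cyp51, 20 for Nsdhl and 24 for Sc5d. On either strand of the full window, CCAAT occurred in 7 of 7 enzyme genes, in 20 of 27 members and in 41.1% of all 27025 genes with a window (37.4% of the 32851 windows). CACCCCAC occurred in 1 of 27 members (Hmgcs1) and in 3.3% of all genes (2.87% of windows). The whole element of the LDL receptor promoter occurred in 0 of 27 members and 0.0999% of all genes (0.0913% of windows). An LXR-type direct repeat (DR4, exact match) occurred in 0 of 27 and 0.0148% of all genes (0.0152% of windows). The matches were held by Hmgcs1, Idi1 and Cyp51, with lower signals, and by Nsdhl and Sc5d, with higher ones. The Sc5d signals came from probe sets that may cross-hybridise. Fdps, Fdft1 and Sqle had no window in the table. A match is a string of letters and no measured site.

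The pathway has further enzyme genes outside the list of members, and they too went both ways. Of 19 other genes of sterol synthesis and its control, 8 had a probe set and 7 were above the floor, 5 of them with a ratio above 0 and 2 below. Their median log2 ratio was 0.53. It was 0.17 as the mean over each gene's probe sets and 0.05 without probe sets whose suffix marks possible cross-hybridisation. Mvk, the mevalonate kinase, was at 93.4 in knockout and 61.7 in wild-type cells (0.60, from such a probe set). Mvd, the decarboxylase that makes isopentenyl pyrophosphate, was at 92.9 and 64.3 (0.53).

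Msmo1, a methylsterol oxidase that works just before Nsdhl, was at 59.0 and 37.8 (0.64), the wild-type signal lying just above the floor of 36.4. Ggps1, which turns farnesyl pyrophosphate toward protein prenylation, was at 59.2 in the knockout and below the floor in the wild type, at least 1.63-fold higher, also from a probe set with a cross-hybridisation suffix. Its second probe set, without the suffix, lay the other way, with the knockout signal below the floor and 46.8 in the wild type (−0.36), so the direction turned when suffixed probe sets were left out. Tm7sf2, a sterol reductase that follows Cyp51, was the lowest of this list at 78.2 and 104.4 (−0.42). In pathway order, enzymes with lower signals (Hmgcs1, Idi1, Cyp51, Tm7sf2) were thus interleaved with enzymes of higher signal (Mvk, Mvd, Fdps, Fdft1, Msmo1, Nsdhl).

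**Figure D2:**
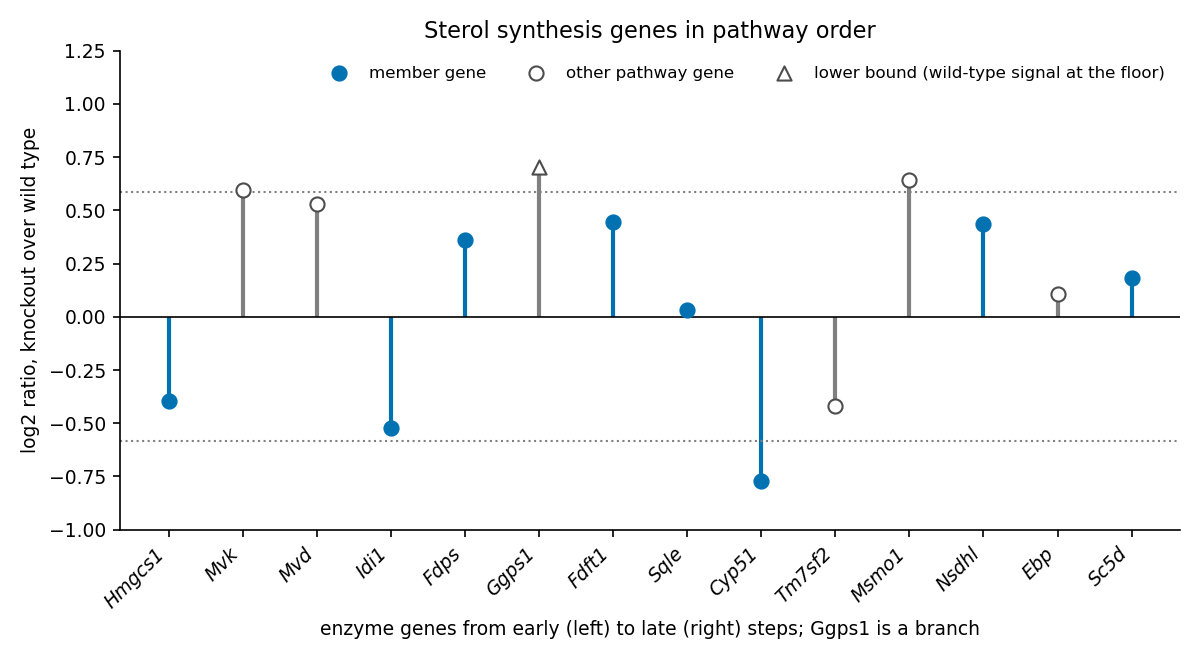
Log2 ratio of knockout over wild type for sterol synthesis genes above the floor, from early steps on the left to late steps on the right, with filled circles for members, open circles for other pathway genes and a triangle for the lower bound of Ggps1. Dotted lines mark 1.5-fold. Hmgcs1, Idi1, Cyp51 and Tm7sf2 lie below 0 and the others above it, Sqle (0.03) and Ebp (0.11) closest to it.

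The measured regulators were all lower on the knockout array, by different amounts. Of the 7 regulator genes, 3 were above the floor, and their median log2 ratio was −0.35. Among all eligible genes, 47.8% had a ratio below 0. Rxra encodes the retinoid X receptor alpha, the partner of LXR and PPAR, and had 69.4 in knockout and 131.2 in wild-type cells. That is 1.89-fold lower (log2 ratio −0.92, probe set 92234_at), and the second probe set, 92235_g_at, gave 52.2 and 89.7 (−0.78). Both Rxra probe sets thus placed the knockout lower, although they read the same RNA and may share probes. With median scaling, the Rxra ratio was −1.04, past 2-fold. With the floor at the 75th percentile, which lies above their knockout signals and near their wild-type signals, the ratios of Rxra and Cyp51 were −0.014 and −0.095.

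Srebf1, the gene of SREBP1, which drives fatty acid synthesis and is itself an LXR target, was at 343.8 in knockout and 437.4 in wild-type cells (−0.35). Nr1h3, which encodes LXR alpha, was at 359.2 and 417.1 (−0.22). These differences are small, at 78.6% and 86.1% of the wild-type signal. No scaling, other floors and other probe-set choices left both ratios as they were, and median scaling lowers every ratio. Their sign could turn only with quantile normalization (−0.31 and −0.19) or lowess (−0.33 and −0.20), and it did not. Insig1, which holds SREBP in the endoplasmic reticulum, was at 9.1 and 8.5, and Pparg, the fatty acid sensor PPAR gamma, at 15.2 and 22.2, all below the floor. Of the 16 other efflux, LXR and PPAR partner genes, 5 were above the floor, 4 of them below 0, with a median of −0.07. Rxrb, the second RXR gene, was the lowest of them at 147.5 in knockout and 247.9 in wild-type cells (−0.75, 1.68-fold). The fatty acid receptor gene Ppara was the highest at 59.5 and 42.1 (0.50).

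The cholesterol exporter genes were lower on the knockout array and the apolipoprotein gene Apoc2 was higher. All 5 genes of efflux and lipoprotein were measured, 0 of them 1.5-fold apart, beside 12.1% of all eligible genes. Of the 5, 2 lay above 0 and 3 below 0, with a median log2 ratio of −0.09 (0.028 with the floor at the 75th percentile). Abca1, which loads cholesterol onto apolipoprotein A1, was at 676.9 in knockout and 893.9 in wild-type cells (−0.40), and its second probe set, at 96.5 and 111.0, gave −0.20. Abcg1, which exports cholesterol to HDL, was near the floor at 41.0 and 51.0 (−0.31). Of the scalings, only quantile normalization and lowess could turn the sign of the exporter ratios. Under these Abca1 was at −0.38 and −0.39, and Abcg1 at −0.39 and −0.34.

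Apoe, the apolipoprotein E that macrophages secrete, was at 10302 in knockout and 9312 in wild-type cells (0.15, and 0 after quantile normalization). Apoc2, the cofactor of lipoprotein lipase, was at 218.9 and 152.5 (0.52), 1.44-fold higher. Pltp, the phospholipid transfer protein gene, was nearly level at 611.5 and 650.6 (−0.09). Apoe, Apoc2, Pltp, Abca1 and Abcg1 are all known LXR targets in macrophages, and their ratios ran from −0.40 to 0.52.

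Genes of lipid uptake lay on both sides of 0. Cd36, the scavenger receptor for oxidised LDL and fatty acids, was lower in the knockout at 200.1 against 266.4 (−0.41). Scarb1, the HDL receptor SR-BI, was higher at 192.5 against 138.8 (0.47). Lpl, the lipoprotein lipase that frees fatty acids from triglyceride, was level at 5106.8 and 4980.7 (0.04, but −0.08 with median scaling and also below 0 after quantile normalization or lowess). Its second probe set was at 51.5 in the knockout and below the floor in the wild type, at least 1.41-fold higher.

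Of 7 other uptake and scavenging genes, 4 were above the floor and all 4 were below 0, with a median of −0.16. Of all eligible genes, 47.8% were below 0. Msr1, the class A scavenger receptor, was the lowest at 1365.5 in knockout and 2170.8 in wild-type cells (−0.67), and its second probe set gave −0.30. The endocytic receptor gene Lrp1 was the highest of them at 831.7 and 871.0 (−0.07). Cd36 and Msr1, which both take up modified LDL, thus had lower signals on the knockout array, while the receptor gene Scarb1 had a higher one (0.47).

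The fatty acid synthesis genes above the floor differed by less than 1.5-fold. Of the 5 genes, 3 were above the floor, and the median log2 ratio was 0.33 (0.045 with no floor). Among all eligible genes 12.1% were 1.5-fold or more apart, and 3 genes are too few to set against that share. Fasn, the fatty acid synthase, was at 68.3 in knockout and 54.4 in wild-type cells (0.33). Of the stearoyl-CoA desaturases, which put the double bond into saturated fatty acids, Scd2 was at 82.1 and 64.3 (0.35), while Scd1 was at 104.3 and 123.1 (−0.24). The paralogs thus lay on either side of 0, and the 2 other Scd1 probe sets were below the floor. Acly, which supplies acetyl-CoA from citrate, was at 5.7 and 8.9, both below the floor.

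Of 14 other genes of fatty acid synthesis and activation, 6 were above the floor, 0 of them 1.5-fold apart, beside 12.1% of all eligible genes. Of the 6, 3 lay above 0 and 3 below, with a median of 0.01 (−0.11 with median scaling). The acyl-CoA synthetase gene Acsl4 was the lowest at 207.8 and 291.7 (−0.49), and the desaturase gene Fads1 the highest at 218.2 and 181.5 (0.27).

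The highest and the lowest ratio of all measured members, those of Lipa and Osbpl5, belonged to sterol trafficking and storage. Of 8 genes, 7 were measured, 2 of them 1.5-fold higher and 1 more than 2-fold lower, and their median was 0.10 (−0.015 with median scaling). Lipa encodes the lysosomal acid lipase that splits cholesteryl esters, and its signal was 295.0 in knockout and 160.1 in wild-type cells. That is 1.84-fold higher (log2 ratio 0.88, probe set 102123_at), and the ratio ran from 0.76 to 0.89 over the other processings. Npc2, the soluble protein that hands cholesterol to NPC1 inside the lysosome, was at 312.8 and 201.0, 1.56-fold higher (0.64, probe set 95145_at). With median scaling, the Npc2 ratio was 0.52, under 1.5-fold.

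Npc1, the membrane protein that takes cholesterol out of the lysosome, was at 975.8 in knockout and 908.1 in wild-type cells (0.10, and −0.01 with median scaling). Ratios of 1.5-fold or more higher occurred in 6.37% of all eligible genes. All 8 macrophage markers were also higher on the knockout array, by log2 ratios of 0.06 (Adgre1) to 0.36. Their summed signal was 24716 in knockout and 20880 in wild-type cells. Among all 5119 eligible genes, 2672 had a ratio above 0. The markers were read under trimmed-mean scaling only, and median scaling lowers ratios by over 0.1, more than the ratio of Adgre1. Under trimmed-mean scaling Lipa and Npc2 lay above the marker range, and the part of the markers in their ratios was not tested.

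Osbpl5, an oxysterol-binding protein that moves lipid at contacts of the endoplasmic reticulum with the plasma membrane, was at 39.1 in knockout and 96.6 in wild-type cells. That is 2.47-fold lower (log2 ratio −1.30, probe set 103311_at). The knockout signal was just above the floor of 36.4, and once the floor was put at the 75th percentile the gene had no ratio. Mesothelial and stromal markers were lower with it, 4 of the 5 above the floor being below 0, with a summed signal of 771 in knockout and 1003 in wild-type cells. Of these, Acta2 was the lowest at 52.2 and 133.3 (−1.35). The others were nearer to level, with Col1a1 at −0.46, Col3a1 at −0.30, Upk3b at −0.23 and Col1a2 at 0.09. Msln was below the floor on both arrays. Their part in the Osbpl5 ratio was not tested.

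Storage and carrier genes were less than 1.5-fold apart. Plin2, the coat protein of macrophage lipid droplets, was at 7436 in knockout and 8261 in wild-type cells (−0.15). The fatty acid carriers went apart, with Fabp4 at 58.5 and 77.6 (−0.41) and Fabp5 at 885.1 and 808.9 (0.13). Fabp4 is also abundant in adipocytes, whose marker genes Adipoq and Retn were below the floor on both arrays, while Lep was at 291.3 and 350.0 (−0.26). Summed over Adipoq, Retn and Lep, the signal was 308.6 in knockout and 357.0 in wild-type cells, nearly all of it from Lep. Adipoq lay the other way, at 12.7 in knockout and 2.5 in wild-type cells. The sum is therefore no measure of adipocyte content, and a part of adipocytes in the Fabp4 ratio was not tested.

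Of 17 other trafficking and storage genes, 10 were above the floor, 6 above 0 and 4 below, with a median of 0.12 (−0.02 as the mean over each gene's probe sets). Gpam, the first enzyme of triglyceride synthesis, was the highest at 167.4 in knockout and 101.0 in wild-type cells (0.73, 1.66-fold). The monoglyceride lipase gene Mgll was the lowest at 57.7 and 80.5 (−0.48). None of the 38 other pathway genes above the floor was 2-fold apart, beside 2.31% of all eligible genes. By 1.5-fold, 4 were higher (Mvk, Ggps1, Msmo1, Gpam) and 2 lower (Rxrb, Msr1). That is 15.8% of the 38, beside 12.1% of all eligible genes. Without probe sets that may cross-hybridise, 2 were 1.5-fold higher.

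**Figure D3:**
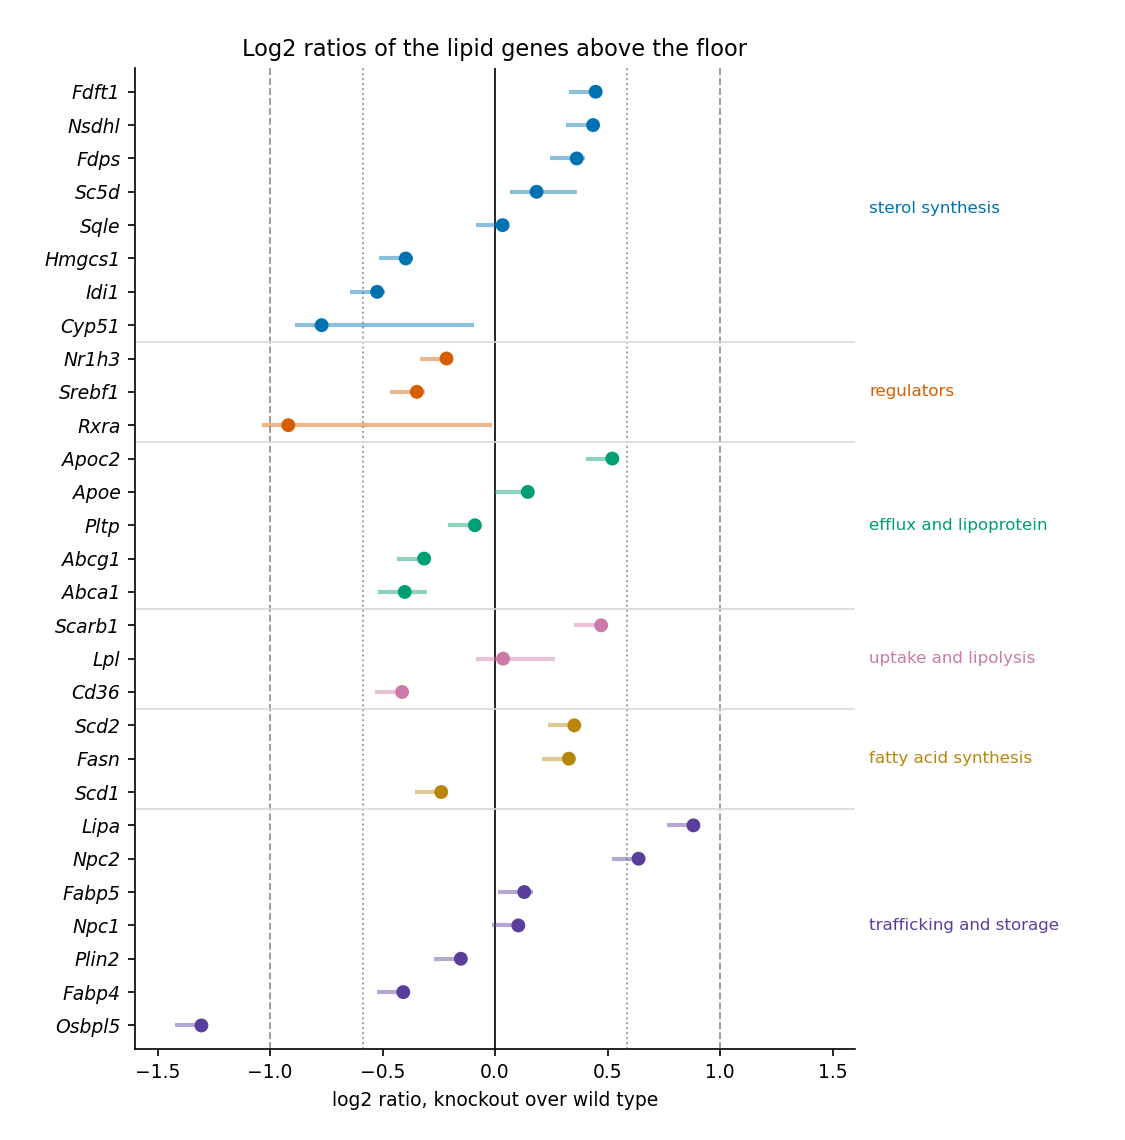
Log2 ratio of knockout over wild type for the 29 lipid genes above the floor, by role; points are the reported values and bars the range over the processings tried, which is no replicate error. Dotted lines mark 1.5-fold and dashed lines 2-fold; the bars of Rxra and Cyp51 reach toward 0 because a higher floor lies near their signals.

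Sterol synthesis genes and the efflux, uptake and fatty acid genes had medians close to each other. The median log2 ratio was 0.11 over 8 sterol synthesis genes and 0.04 over 11 efflux, uptake and fatty acid genes, a difference of 0.07. With the floor at the 75th percentile, the difference was −0.066. Ratios ran from −0.77 (Cyp51) to 0.45 (Fdft1) among the first and from −0.41 (Cd36) to 0.52 (Apoc2) among the second.

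The share of genes 1.5-fold or more apart depended on the signal. Among all eligible genes it was 16.9% where the signal of the brighter array was at most 100, 13.1% between 100 and 300, and 4.65% above 300. Of the members past 1.5-fold, Osbpl5 was 1 of 6 members in the dimmest class. Lipa, Cyp51 and Rxra were 3 of 10 in the middle class, and Npc2 was 1 of 13 in the brightest.

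With median scaling, the median log2 ratio over all eligible genes went from 0.02 to −0.10. It changed the split of genes 1.5-fold apart from 326 higher and 293 lower to 214 higher and 456 lower. Under it, 12 members were above 0 and 17 below, and those past 1.5-fold were Lipa higher and Cyp51, Idi1, Osbpl5 and Rxra lower.

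**Figure D4:**
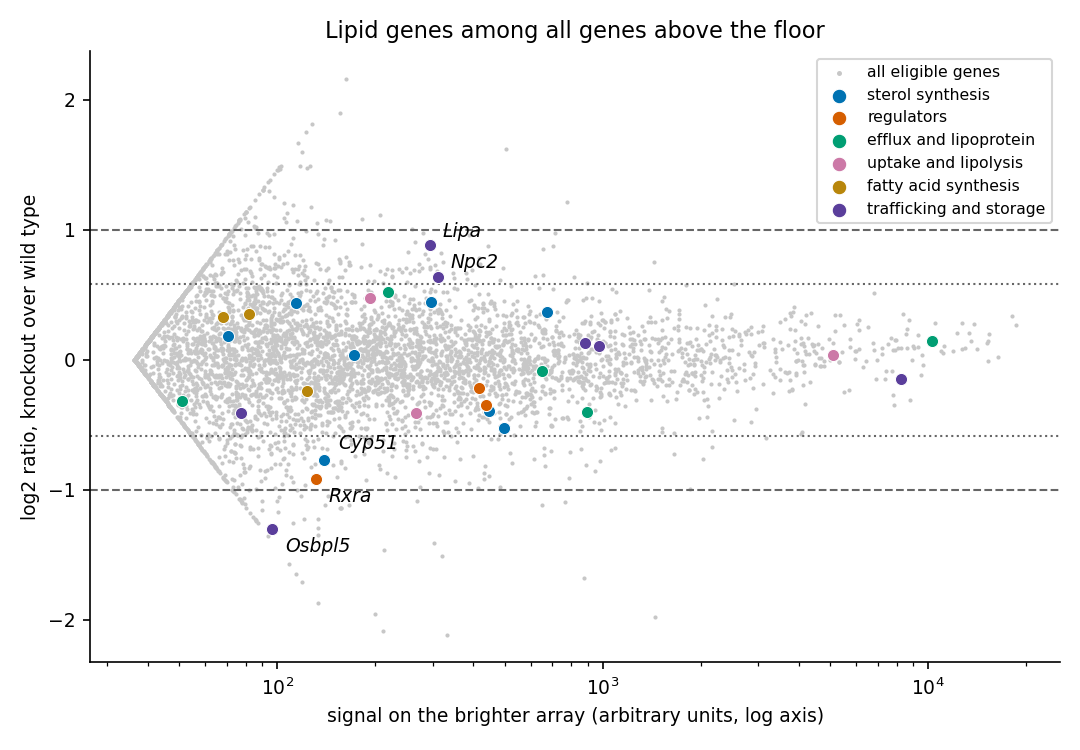
Log2 ratio of knockout over wild type against the signal on the brighter array (arbitrary units, log axis) for all 5119 eligible genes (grey) and the 29 lipid genes (coloured by role), with dotted lines at 1.5-fold and dashed lines at 2-fold. The cloud narrows with signal, and of the lipid genes Osbpl5 alone lies past 2-fold.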

How the data were processed

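Total RNA was amplified, labelled and hybridised, 1 array per genotype. The authors deposited 1 intensity per probe set and array, computed with MAS5 per the submitters' processing notes, on a linear scale and with equal 2% trimmed means on both arrays. Detection calls were not used here.

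Probe sets were named through the platform's annotation table. Of 12654, 10276 had 1 symbol, 363 several, 1949 none here, and 66 were controls; only the first were used. Where a gene had several (1609 genes), the brightest on average was taken. Arrays were scaled to the same 2% trimmed mean, signals raised to the floor of 36.4, and log2 ratios taken. A gene was eligible with at least 1 signal above the floor (5119 genes, 4400 with both); a ratio with 1 signal below it is written as at least. Counts use 2-fold and 1.5-fold. Functions were tested on simulated data. Tools were Python 3.11.15, numpy 2.4.6, pandas 2.3.3, scipy 1.17.1 and statsmodels 0.14.6.

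All members are named, and of other genes the one with the highest and lowest ratio in each list, Dusp2 and markers. Mvk, Mvd, Msmo1 and Ebp were named after their values were seen. Members and lists were chosen with earlier results of these data known.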

Additional observations from a re-analysis of the deposited data

How the results depend on the processing

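No paired analysis was possible because each genotype has 1 array, and no array could be left out. Alternatives were scaling to the same median, no scaling, quantile normalization, lowess, floors at the 25th and 75th percentile, no floor, means over probe sets, and leaving out probe sets that may cross-hybridise. For a member with 1 probe set, no cross-hybridisation suffix and signals above every floor, only the scaling could change the ratio. Of the 29 measured members, 26 never had the opposite sign. Sqle and Npc1 had it with median scaling, and Lpl with median scaling, quantile normalization and lowess. A median that differed by over 0.1 log2, or a count by over 1.5 times, is given here. Median scaling multiplies each array by a constant, so ratios of signals above the floor all fall by the same step of over 0.1 log2. Hmgcs1 went from −0.40 to −0.52 and Lipa from 0.88 to 0.76. The floor at the 25th percentile left 32 members and no floor 34, while the floor at the 75th percentile left fewer. What else moved a value was not tested. Under each scaling Lipa, Cyp51, Rxra and Osbpl5 stayed past 1.5-fold. Signal over background limits the 5 members below the floor, and Abcg1 and Osbpl5, whose knockout signals of 41.0 and 39.1 lie just above it.

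With arrays scaled to 1 median, 2 members were 2-fold lower and 1 was 1.5-fold higher, and 2 other pathway genes were 1.5-fold higher and 4 lower. Median log2 ratios were then −0.085 for all members, −0.0093 for sterol synthesis, −0.47 for regulators, −0.21 for efflux and lipoprotein, −0.083 for uptake and lipolysis, 0.21 for fatty acid synthesis, −0.015 for trafficking and storage and −0.083 for efflux, uptake and fatty acid members. For the lists of other genes they were 0.41 for sterol synthesis, −0.19 for efflux, LXR and PPAR partners, −0.28 for uptake, −0.11 for fatty acid synthesis, −0.0025 for trafficking and −0.12 for fatty acid oxidation.

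With the floor at the 75th percentile, which left 21 members, 0 were 2-fold lower, 0 were 1.5-fold lower and 0 other pathway genes were 1.5-fold higher. Medians were then −0.030 for sterol synthesis, −0.22 for regulators, 0.028 for efflux and lipoprotein, 0.11 for other sterol synthesis genes and −0.22 for other efflux, LXR and PPAR partners, and the difference between sterol synthesis and the efflux, uptake and fatty acid members was −0.066. With the floor at the 25th percentile, 5 other pathway genes were 1.5-fold lower and the median of other sterol synthesis genes was 0.32. With no floor, 2 members were 2-fold lower, 5 were 1.5-fold lower and 6 other pathway genes were 1.5-fold lower, with medians of 0.045 for fatty acid synthesis and 0.32 for other sterol synthesis genes. As means over probe sets, 1 other pathway gene was 1.5-fold lower, and medians were 0.27 for uptake and lipolysis, 0.15 for efflux, uptake and fatty acid members, 0.17 for other sterol synthesis genes and −0.019 for other trafficking genes. After quantile normalization 2 other pathway genes were 1.5-fold higher. Without probe sets that may cross-hybridise there were also 2, and the median of other sterol synthesis genes was 0.047.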

Other observations

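Genes of fatty acid oxidation, the pathway that burns fatty acids in mitochondria, had a median ratio close to level. Of 10 genes, 8 had a probe set and 6 were above the floor, 3 with a ratio above 0 and 3 below. Their median log2 ratio was −0.0046. Of the 6, 0 were 1.5-fold apart, beside 12.1% of all eligible genes. Slc25a20, the carrier that brings acylcarnitine into the mitochondrion, was the highest at 230.1 in knockout and 197.2 in wild-type cells (0.22). Acadl, the long-chain acyl-CoA dehydrogenase gene, was the lowest at 226.4 and 281.8 (−0.32).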
